A study of Mus musculus with 2 samples.

Results

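The histone genes of mouse haematopoietic stem and progenitor cells were compared between adult bone marrow and fetal liver. The members were all genes whose current or older symbol begins with Hist1h to Hist4h, H1f, H2af or H3f. There were 93 such genes, against 20660 genes named on the arrays in all, and they fell into 70 replication-dependent genes (older symbols beginning with Hist) and 23 histone variant genes. A probe was matched to 62 of the 93, and 57 of these were well above background on both arrays, 45 replication-dependent and 12 variant. The cells were sorted as LSK, that is, without lineage markers and positive for Sca-1 and c-Kit, the fraction that holds blood stem cells and multipotent progenitors. One sample came from bone marrow of C57BL/6 mice at 8 weeks and the other from fetal liver at E14.5, for which the labels used here give no strain. Both were wild type and not transplanted. Each group was 1 single-colour array, so the differences have neither replicates nor tests. The labels used here do not say how many animals were pooled.

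Each nucleosome wraps DNA around the core histones H2A, H2B, H3 and H4, and the linker histone H1 binds where DNA enters and leaves. Replication-dependent histone genes lie in clusters, have no introns and are transcribed mainly in S phase, when new DNA must be packaged, and their mRNAs end in a stem-loop bound by SLBP in place of a poly(A) tail. Variant genes lie outside these clusters, and most give polyadenylated mRNAs and are expressed through the cell cycle. Their products can replace the canonical histones in resting or transcribed chromatin. The classes here follow symbols alone, so the replication-dependent class also holds H1f6, H2ac1 and H2bc1, known from testis. The variants likewise hold H1f8, known from oocytes. Labelling kits of the kind used here usually prime from poly(A) tails, and the labels do not name the primer. Which forms of the replication-dependent transcripts the probes reported was not tested.

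Values are levels, the log2 signal of a probe relative to the 75th percentile of its array, and differences, the bone marrow level minus the fetal liver level, so that a negative difference is lower in bone marrow. Levels of different probes cannot be set against each other. Errors after ± are technical, derived from the signal errors in the files. They were close to 0.20 for all but dim probes, whatever the signal. They cover neither the choice of scaling nor differences between animals. Well above background were 47.4% of probes in bone marrow and 46.4% in fetal liver. Over the 13390 measured genes the median difference stood at -0.11. With scaling on the spike-in controls instead, every difference became 0.34 higher and that median became 0.23, so list medians are also given relative to it. The LSK label was checked on 7 markers listed for it, all measured on both arrays. Kit, which encodes c-Kit, differed by -0.01 ± 0.20 and Ly6a, which encodes Sca-1, by 2.28 ± 0.20.

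The replication-dependent genes were lower in bone marrow LSK cells as a group. Of 45 measured genes, 41 had a negative difference, each larger than its technical error, and the median of the 45 was -0.61. Over all measured genes, 57.8% were negative. Relative to the median of all genes the group lay at -0.51, and 41 of 45 were below that median. With spike-in scaling 38 of 45 were negative, against 32.2% of all genes. Several of these 38 then lay within their technical error, such as H2ac15 (-0.11), H3c1 (-0.11) and H3c3 (-0.01). A 2-fold lower level in bone marrow was reached by 5 of the 45, against 6.73% of all genes, and a 2-fold higher one by 0, against 8.13% of all genes. At 1.5-fold, 24 of 45 were lower in bone marrow, against 17.6% of all genes, and 1 was higher, against 14.8%. With spike-in scaling, 2 of 45 were at least 2-fold lower, against 3.79% of all genes, and 1 was at least 2-fold higher, against 13.1%. The shift was therefore modest for each gene, and the brightest probes of most genes showed it. Probes of near-identical genes, mainly of H2A and H4, can share signal, so the 45 genes are not all separate measurements.

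**Figure D1:**
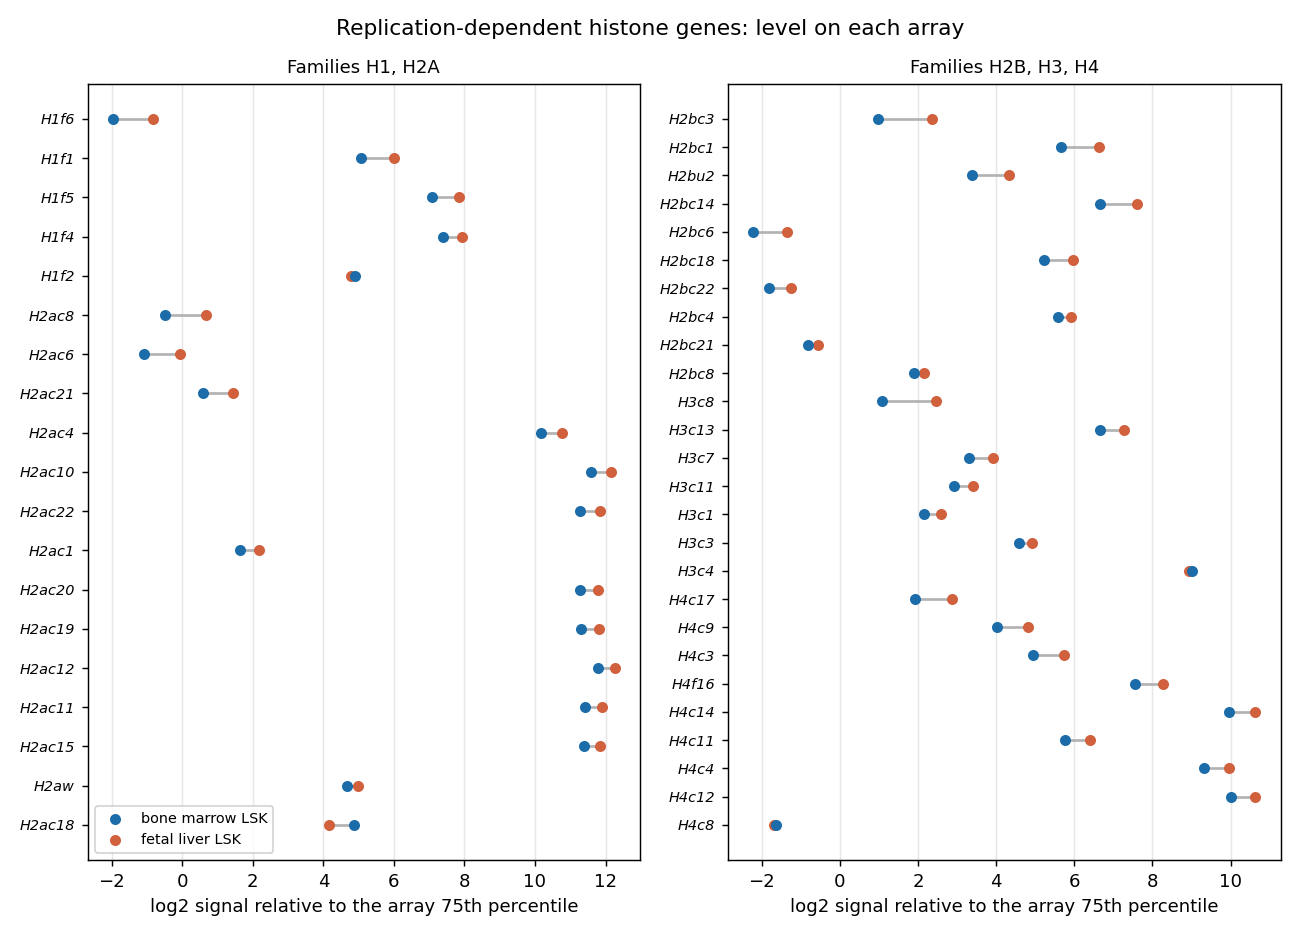
Level of each measured replication-dependent histone gene (log2 signal relative to the 75th percentile of the array), with 1 point for bone marrow LSK and 1 for fetal liver LSK cells. Rows run within a family from the lowest to the highest difference. The bone marrow point lies left of the fetal liver point for 41 of 45 genes.

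The 5 genes past 2-fold were H2bc3 (Hist1h2bb), H3c8 (Hist1h3g), H1f6 (Hist1h1t), H2ac8 (Hist1h2ae) and H2ac6 (Hist1h2ac), all of the Hist1 cluster on chromosome 13. That cluster holds 34 of the 45 measured genes of the class. H2bc3, which encodes a core H2B, had 0.96 in bone marrow and 2.36 in fetal liver, 2.62-fold lower in bone marrow (-1.39 ± 0.20). H3c8, which encodes a core H3, had 1.07 in bone marrow and 2.45 in fetal liver, 2.60-fold lower in bone marrow (-1.38 ± 0.20). These were the replication-dependent genes that stayed past 2-fold under spike-in scaling (-1.05 and -1.04) and under normexp background correction (-1.24 and -1.17). H1f6, the testis linker histone, had -1.97 in bone marrow and -0.82 in fetal liver, from a dim probe. H2ac8 had -0.48 in bone marrow and 0.66 in fetal liver, and H2ac6 had -1.09 in bone marrow and -0.06 in fetal liver. The members just inside the 2-fold limit were H2ac6 (-1.03), H2ac8 (-1.14) and H1f6 (-1.15), and those just outside were H2bc1 (-0.99), H2bu2 (-0.95) and H2bc14 (-0.94). The limit therefore cuts through a continuous run of values.

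Promoter windows are shown for 3 replication-dependent genes of different families that were lower in bone marrow and for the variants H3f3b and Macroh2a1, the variants with the highest differences. They are shown as examples of lower and higher genes and do not stand for their classes. The windows are from RefSeq, build GRCm38.p6, and run from 250 bases before the start of the gene to 50 bases after it. Capitals mark matches on either strand to 3 motifs known from histone promoters. TATAAA stands for the TATA box near the start of transcription. CCAAT stands for the CCAAT box bound by the factor NF-Y. The octamer of H2B promoters, bound by POU factors, was searched as ATTTGCAT. No motif contains another.
H2bc3, chr13:23746484-23746783, strand +: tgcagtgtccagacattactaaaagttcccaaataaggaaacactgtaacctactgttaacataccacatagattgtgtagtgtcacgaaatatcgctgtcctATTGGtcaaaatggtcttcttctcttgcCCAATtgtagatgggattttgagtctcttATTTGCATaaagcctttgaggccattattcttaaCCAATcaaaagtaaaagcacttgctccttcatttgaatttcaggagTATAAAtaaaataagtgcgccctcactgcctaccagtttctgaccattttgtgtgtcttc
H3c8, chr13:23535168-23535467, strand +: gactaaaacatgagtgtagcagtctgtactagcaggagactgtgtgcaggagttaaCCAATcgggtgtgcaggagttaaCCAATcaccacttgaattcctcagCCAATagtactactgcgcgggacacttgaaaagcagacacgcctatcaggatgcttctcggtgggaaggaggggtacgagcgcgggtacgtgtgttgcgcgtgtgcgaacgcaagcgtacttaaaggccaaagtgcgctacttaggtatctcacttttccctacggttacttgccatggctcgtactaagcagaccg
H4c17, chr13:21811496-21811795, strand +: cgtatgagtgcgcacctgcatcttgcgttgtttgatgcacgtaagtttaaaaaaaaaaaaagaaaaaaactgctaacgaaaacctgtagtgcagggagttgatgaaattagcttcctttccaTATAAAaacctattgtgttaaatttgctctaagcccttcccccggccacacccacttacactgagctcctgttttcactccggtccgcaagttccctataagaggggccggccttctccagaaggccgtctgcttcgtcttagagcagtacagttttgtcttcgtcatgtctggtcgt
H3f3b, chr11:116024455-116024754, strand -: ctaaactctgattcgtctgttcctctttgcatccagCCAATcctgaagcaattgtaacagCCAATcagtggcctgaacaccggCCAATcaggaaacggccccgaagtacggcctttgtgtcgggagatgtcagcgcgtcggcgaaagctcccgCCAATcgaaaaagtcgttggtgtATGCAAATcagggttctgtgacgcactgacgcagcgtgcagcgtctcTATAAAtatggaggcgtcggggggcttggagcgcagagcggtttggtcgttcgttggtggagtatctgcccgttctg
Macroh2a1, chr13:56135501-56135800, strand -: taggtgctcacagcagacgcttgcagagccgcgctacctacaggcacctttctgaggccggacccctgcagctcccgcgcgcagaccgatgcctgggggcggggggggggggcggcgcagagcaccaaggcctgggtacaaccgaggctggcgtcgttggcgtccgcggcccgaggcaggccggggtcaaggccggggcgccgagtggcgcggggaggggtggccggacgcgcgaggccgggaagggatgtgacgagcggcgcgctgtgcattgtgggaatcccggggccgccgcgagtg
The H2bc3 window held 3 CCAAT boxes, 1 TATA box and 1 octamer, with 4 bases between the TATA match and the listed start. The H3c8 window held 3 CCAAT boxes, and the H4c17 window held 1 TATA match, 122 bases before the start. The H3f3b window held 4 CCAAT boxes, 1 TATA box and 1 octamer on the reverse strand, while no match lay in the Macroh2a1 window.

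Promoter windows were found for 79 of the 93 members, 80 windows in all, and were set against all 32851 windows of the same length. CCAAT stood in all 51 windows of replication-dependent H1, H2A, H2B and H3 genes, in 3 of 12 windows of H4 genes and in 11 of 17 variant windows, against 37.4% of all windows. TATAAA stood in 35 of 63 replication-dependent windows and 2 of 17 variant windows, against 13.6% of all. ATTTGCAT stood in 14 of 35 windows of H2A and H2B genes and in 0 of the 6 windows of H1, 10 of H3 and 12 of H4 genes, and in 1 of 17 variant windows, against 1.74% of all. H4 genes had a median difference of -0.67, and the class as a whole one of -0.61. Whether the motifs relate to the differences was not tested. Many H2A and H2B genes are divergent neighbours, so their windows can overlap and are not separate sequences. The matches describe letters only, and the data give no binding.

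Linker histone genes of the class differed among themselves. Of 6 H1 genes, 5 were measured, with a median of -0.77. H1f1 (Hist1h1a) had 5.07 in bone marrow and 5.99 in fetal liver (-0.92 ± 0.20), H1f5 (Hist1h1b) had 7.07 in bone marrow and 7.83 in fetal liver (-0.77), and H1f4 (Hist1h1e) had 7.39 in bone marrow and 7.93 in fetal liver (-0.54). H1f2 (Hist1h1c) had 4.90 in bone marrow and 4.78 in fetal liver. Its difference of 0.12 lay within its technical error. H1f1 and H1f5 are known as linker histones of dividing cells, while H1f2 is also expressed in cells that have left the cycle. The fifth measured gene was H1f6, given above, and H1f3 was dim on both arrays.

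H2A genes gave 14 measured members of 20, with a median of -0.53 and 13 negative. Probes of 8 of them, H2ac4, H2ac10, H2ac11, H2ac12, H2ac15, H2ac19, H2ac20 and H2ac22, gave signals, before scaling, that were over 100000, and their differences ran only from -0.62 to -0.45. H2ac12 (Hist1h2ah) had the highest signals, 635521 in bone marrow and 661073 in fetal liver. These were 81.6% and 84.9% of the saturation value of the scans, and 0 spots were marked as saturated. Whether differences so near the top of the range were compressed was not tested. The genes encode nearly the same protein from nearly the same sequence, so these 8 values are uncertain gene by gene and are not separate measurements. The other 6 H2A genes spread more widely, from -1.14 to 0.70. H2ac21 (Hist2h2ab) had 0.59 in bone marrow and 1.42 in fetal liver (-0.83), and H2aw (Hist3h2a) had 4.66 in bone marrow and 4.99 in fetal liver (-0.33). H2ac1 (Hist1h2aa), a testis H2A, had 1.63 in bone marrow and 2.17 in fetal liver (-0.53).

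H2ac18 (Hist2h2aa1) went against the class. It had 4.86 in bone marrow and 4.16 in fetal liver, so was 1.63-fold higher in bone marrow (0.70 ± 0.20), and was the only replication-dependent gene higher there by more than its technical error. Its near-identical neighbour H2ac19 (Hist2h2aa2) had 11.32 in bone marrow and 11.81 in fetal liver (-0.49). Under spike-in scaling H2ac18 passed 2-fold (1.04), and it was then the only replication-dependent gene to do so in this direction. With that scaling H1f2 (0.45), H3c4 (0.41) and H4c8 (0.37) were also higher in bone marrow by more than their technical error. Probe sequences were not used here, so what part of the transcripts each probe reads is unknown.

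All 10 measured H2B genes of 19 were negative, with a median of -0.80, and 8 were negative under spike-in scaling. H2bc1 (Hist1h2ba), a testis H2B, had 5.65 in bone marrow and 6.64 in fetal liver (-0.99 ± 0.20). H2bu2 (Hist3h2ba) had 3.39 in bone marrow and 4.34 in fetal liver (-0.95), and H2bc14 (Hist1h2bm) had 6.66 in bone marrow and 7.61 in fetal liver (-0.94). Intermediate values were those of H2bc6 (-0.87), H2bc18 (-0.73) and H2bc22 (-0.57). The smallest were those of H2bc4 (Hist1h2bc), with 5.59 in bone marrow and 5.93 in fetal liver (-0.34), H2bc21 (Hist2h2be, -0.25) and H2bc8 (Hist1h2bg, -0.24). The human counterparts of H2bc4 and H2bc21 are known to give polyadenylated transcripts as well. Whether the form of the transcripts relates to the size of these differences was not tested. Differences of H2B genes thus covered a range of more than a full log2 unit.

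Of the H3 genes 7 of 12 were measured, with a median of -0.48 and 6 negative. Next to H3c8, H3c13 (Hist2h3b) had 6.66 in bone marrow and 7.27 in fetal liver (-0.61), and H3c7 (Hist1h3f) had 3.30 in bone marrow and 3.91 in fetal liver (-0.61). H3c11, H3c1 and H3c3 lay between -0.48 and -0.35. H3c4 (Hist1h3d) had 9.02 in bone marrow and 8.95 in fetal liver, which differed by 0.08, less than the technical error.

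H4 genes had the narrowest spread of the 5 families (SD 0.27 over genes). Of 13 genes, 9 were measured, with a median of -0.67 and 8 negative, 7 of them between -0.79 and -0.61. H4c17 (Hist1h4m) had 1.92 in bone marrow and 2.86 in fetal liver (-0.94), and H4c3 (Hist1h4c) had 4.95 in bone marrow and 5.74 in fetal liver (-0.79). H4f16 (Hist4h4), the only replication-dependent member on chromosome 6, had 7.56 in bone marrow and 8.27 in fetal liver (-0.70) by its brighter probe. Its other probe was dim on both arrays (signals: bone marrow 2.79, fetal liver 2.30). The value of H4f16 therefore rests on the brighter probe alone, and why the probes disagreed on detection was not tested. H4c8 (Hist1h4h) had -1.64 in bone marrow and -1.68 in fetal liver (0.04), from a dim probe. The genes encode the same protein, and probes for them can share signal.

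Medians of the gene clusters lay close together. The Hist1 cluster on chromosome 13 had a median of -0.61 over 34 measured genes, and the Hist2 cluster on chromosome 3 one of -0.57 over 8. The Hist3 pair on chromosome 11 had a median of -0.64. The 34 genes with signals up to 100000 had a median of -0.67, against -0.55 for the 11 brighter ones. Probes of the class together held 2.42% of all summed signal in bone marrow and 3.10% in fetal liver. Relative to the 75th percentile, the 8 bright H2A genes gave 20704.6 of the 25022.9 summed over measured genes of the class in bone marrow. In fetal liver they gave 29471.8 of 35903.6. Their values are not separate measurements, so these shares can count the same signal more than once.

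**Figure D2:**
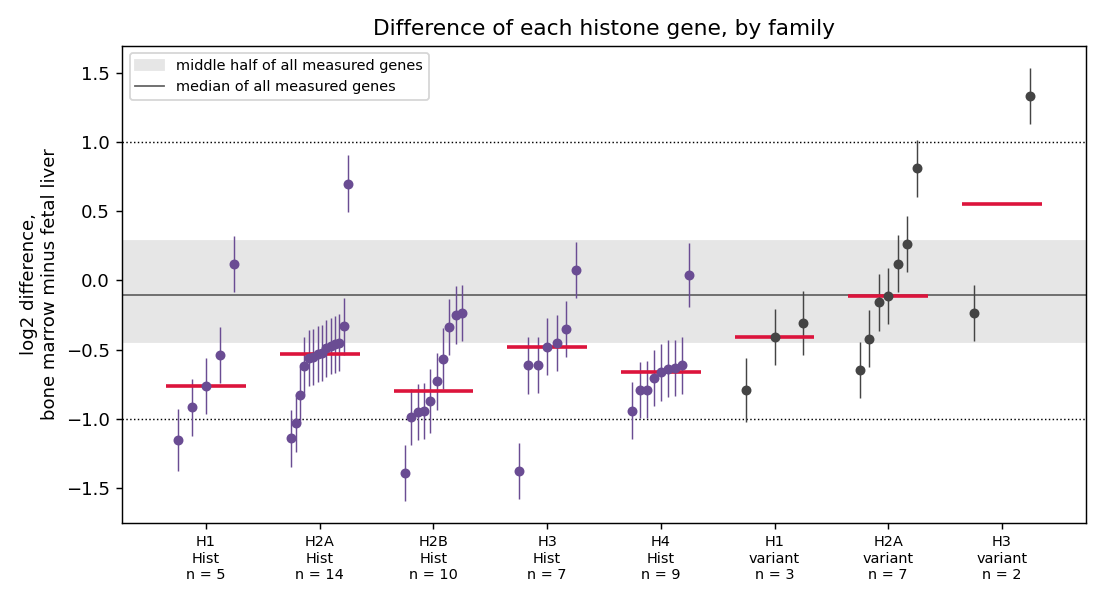
Difference of each measured histone gene (bone marrow minus fetal liver, log2), by family, for replication-dependent genes (Hist) and variants. Bars on points are the technical error, red lines the family medians, dotted lines 2-fold, and the grey band the middle 50% of all measured genes. Family medians of the replication-dependent genes run from -0.80 (H2B) to -0.48 (H3), all below the median of all genes at -0.11.

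Histone variant genes had a median near that of all genes. Of 12 measured variants, 8 had a negative difference, against 57.8% of all genes, and 4 a positive one. The median of the 12 was -0.20, which is -0.09 relative to all genes. A 2-fold higher level in bone marrow was reached by 1 of 12 (H3f3b), against 8.13% of all genes, and a 2-fold lower one by 0, against 6.73%. Under spike-in scaling 4 of the 12 were negative, near the 32.2% of all genes, and the median was 0.14.

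The H3.3 genes diverged. H3f3a and H3f3b encode the same protein, the H3 variant that HIRA and the DAXX-ATRX complex place on chromatin outside replication. H3f3b had 8.30 in bone marrow and 6.97 in fetal liver, 2.52-fold higher in bone marrow (1.34 ± 0.20), and its other probes gave 1.09 and 1.22. H3f3a had 7.51 in bone marrow and 7.75 in fetal liver (-0.24 ± 0.20), with its other probe at 0.06. All 3 probes of H3f3b were past 2-fold and neither probe of H3f3a was. Under spike-in scaling the difference of H3f3b was 1.67.

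Macroh2a1 (H2afy) encodes macroH2A1, an H2A with a large extra domain that is enriched on the inactive X chromosome and at silenced genes. It had 6.66 in bone marrow and 5.85 in fetal liver by its brightest probe, 1.75-fold higher in bone marrow (0.81 ± 0.20). Its other probes gave 1.08 and 2.45, and that of 2.45 had 1.43 in bone marrow and -1.02 in fetal liver. The probes are listed under 3 different transcript accessions of the gene. All 3 were higher in bone marrow, but they disagreed in size by 1.64, while for genes with 2 probes the median disagreement was 0.23 and the 95th percentile was 1.01. Macroh2a2 (H2afy2), the second macroH2A gene, had 3.16 in bone marrow and 3.27 in fetal liver (-0.11), and Macroh2a3 (H2afy3), listed under a noncoding accession, had 1.82 in bone marrow and 1.70 in fetal liver (0.12). Both differences lay within the technical error.

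**Figure D3:**
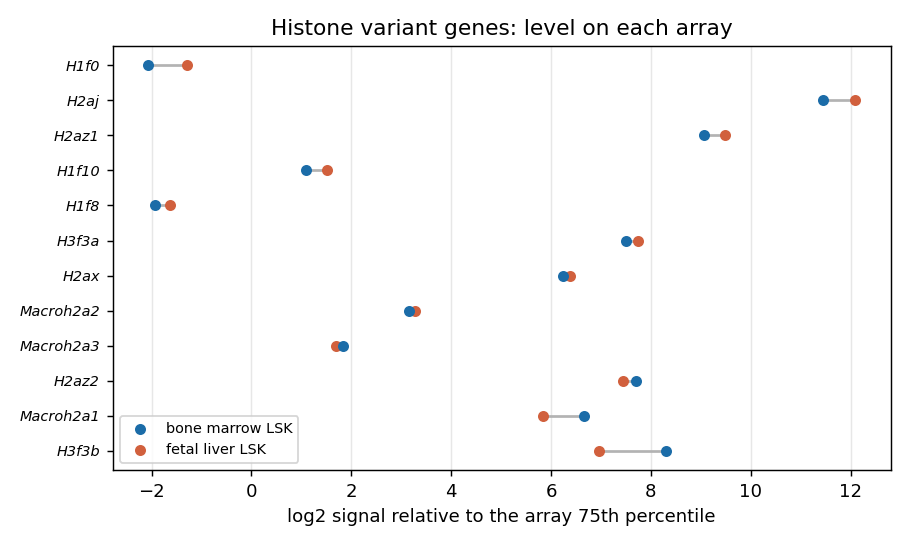
Level of each measured histone variant gene (log2 signal relative to the 75th percentile of the array) in bone marrow LSK and fetal liver LSK cells, from the lowest difference at the top to the highest at the bottom. H3f3b, with 8.30 in bone marrow and 6.97 in fetal liver, and Macroh2a1 have the bone marrow point clearly to the right.

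H2A.Z marks promoters and is encoded by H2az1 and H2az2. H2az1 (H2afz) had 9.06 in bone marrow and 9.48 in fetal liver (-0.42 ± 0.20, other probe -0.24), and H2az2 (H2afv) had 7.71 in bone marrow and 7.44 in fetal liver (0.27 ± 0.20, other probe 0.26). The genes thus had opposite signs, each on both of its probes, although neither reached 2-fold. Under spike-in scaling H2az1 was at -0.08 and its other probe was above 0. H2ax (H2afx), whose product is phosphorylated at DNA breaks, had 6.23 in bone marrow and 6.39 in fetal liver (-0.16), within the technical error.

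H2aj (H2afj) rested on which probe was read. Its brighter probe had 11.44 in bone marrow and 12.09 in fetal liver (-0.65 ± 0.20), which lies next to the range of the bright canonical H2A probes. Its dimmer probe had 2.40 in bone marrow and 2.29 in fetal liver (0.11 ± 0.20). Because H2aj is closely related to the canonical H2A genes, its value is uncertain, and shared signal was not tested.

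All 3 measured linker variants were lower in bone marrow by more than their technical error. H1f0, the H1.0 gene known to accumulate in cells that stop dividing, had -2.07 in bone marrow and -1.28 in fetal liver (-0.79 ± 0.23) from a dim probe with signals of 42.5 and 55.1. H1f10 (H1fx) had 1.09 in bone marrow, with a difference of -0.41. H1f8, the oocyte linker histone, had -1.94 in bone marrow and -1.63 in fetal liver (-0.31), also from a dim probe, and was above 0 under spike-in scaling. Dim on both arrays were the spermatid linker gene H1f7, the short H2A variant gene H2ab1 and its relative H2al2a. Of the replication-dependent genes, H1f3 and H2bc23 were dim on both arrays, and 23 of that class and 8 variants had no matched probe.

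**Figure D4:**
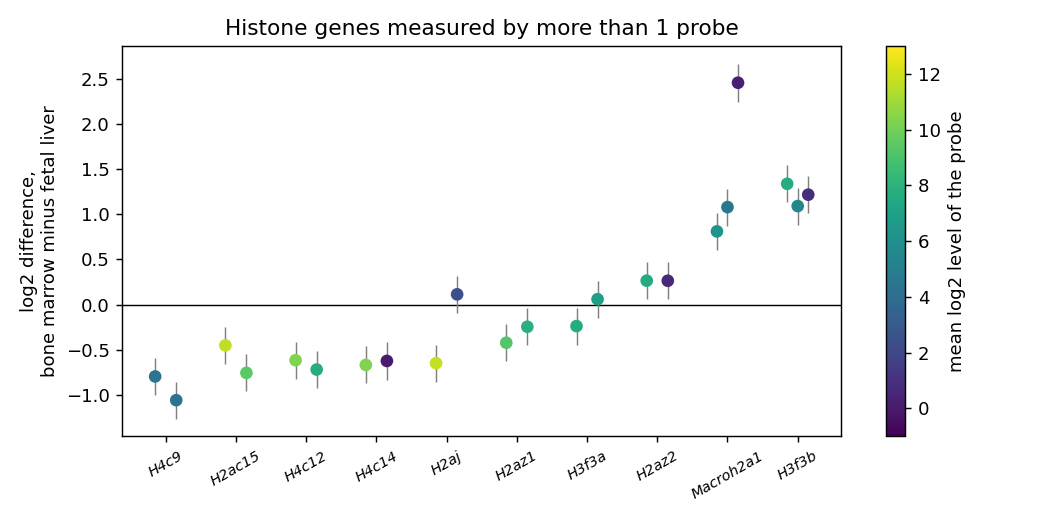
Difference (bone marrow minus fetal liver, log2) of every measured probe of the 10 histone genes with more than 1 such probe. Bars are the technical error and colour is the mean log2 level of the probe. Probes of 8 genes have the same sign, while those of H2aj and H3f3a lie on both sides of 0, and those of Macroh2a1 run from 0.81 to 2.45.

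Genes that handle histones and histone mRNA were shifted less than the replication-dependent genes. Of 43 listed genes 42 were measured, 1 of them as a bound, with a median of -0.26, which is -0.15 relative to all genes, and 34 were negative, against 57.8% of all genes. Under spike-in scaling 18 were negative, against 32.2% of all genes, 2 were at least 2-fold lower, against 3.79%, and the median was 0.081. A 2-fold lower level in bone marrow was reached by 4 of 42, against 6.73% of all genes, and a 2-fold higher one by 0, against 8.13%. Cenpa, which encodes CENP-A, the H3 variant of centromeres, gave signals, before scaling, that were 1936 in bone marrow and 2993 in fetal liver (-1.05 ± 0.20). Hjurp, the CENP-A chaperone, was at 0.95 ± 0.21, the highest of the list. Nasp, a chaperone of H3 and H4, gave signals, before scaling, that were 5444 in bone marrow and 8723 in fetal liver (-1.10 ± 0.20). Zfp473, a U7 snRNP partner in cutting histone mRNA, was at -1.34 ± 0.22 from a dim probe.

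Slbp, which binds the histone mRNA stem-loop, gave signals, before scaling, that were 449 in bone marrow and 320 in fetal liver (0.07 ± 0.20). Npat, the activator of replication-dependent histone genes, had a signal of 7.41 in bone marrow, against 13.1 in fetal liver, of which only the fetal liver one was well above background. Its bound was at least 1.41-fold lower in bone marrow (-0.50 ± 0.68), which lies within the technical error. The H3.3 chaperone genes Hira (-0.22), Daxx (-0.33) and Atrx (0.26) were all under 2-fold. The H3 and H4 assembly genes Chaf1a (-0.52) and Chaf1b (0.24) had opposite signs, while Asf1a was at -0.80 and Asf1b at 0.17, within its technical error.

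Histone genes are read beside markers of the cell cycle, since transcription of most replication-dependent ones follows it. S phase genes had a median of -0.26 over 24 measured of 25, with 18 negative, against 57.8% of all genes, and 1 at least 2-fold lower in bone marrow (Ccne1, cyclin E1, at -1.74), against 6.73%. Under spike-in scaling 9 of the 24 were negative, near the 32.2% of all genes. Pcna, the replication clamp, differed by 0.05. Mitosis genes had a median of -0.69 over 19 measured of 20, all negative, with 5 at least 2-fold lower in bone marrow, namely Plk1 (-1.24), Ccnb1 (-1.23), Kif20a (-1.22), Bub1 (-1.18) and Cenpe (-1.08), against 6.73% of all genes. Under spike-in scaling 0 of the 19 were at least 2-fold lower in bone marrow, against 3.79% of all genes. Mki67, the proliferation marker, was at -0.56, and 18 of the 19 were negative under spike-in scaling. The median of the replication-dependent histone genes thus lay nearer to that of mitosis genes than to that of S phase genes, and whether the share of cycling cells accounts for it was not tested. In such bulk samples fewer cells of a type and less RNA per cell cannot be told apart.

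**Figure D5:**
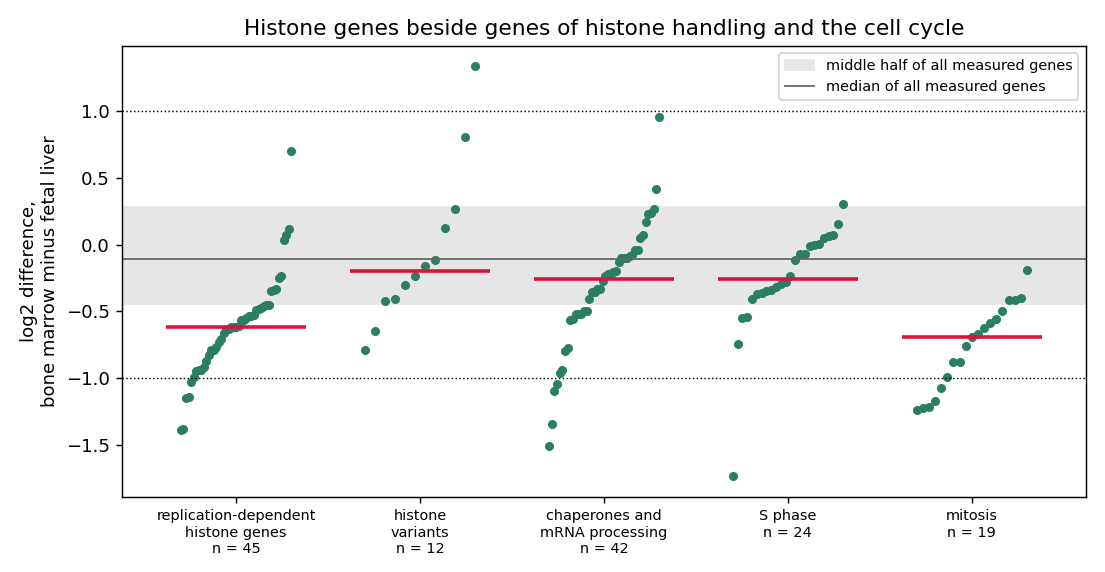
Differences (bone marrow minus fetal liver, log2) of the measured genes of 5 lists, each sorted, with the list median in red, 2-fold as dotted lines and the middle 50% of all measured genes in grey. Medians are -0.61 for replication-dependent histone genes, -0.20 for variants, -0.26 for histone handling genes, -0.26 for S phase genes and -0.69 for mitosis genes.

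Markers of other cell types also differed between the arrays. Of 7 neutrophil markers, 5 were higher in bone marrow by 2-fold or more, against 8.13% of all genes, and the summed signal of the list was 85.3 times the 75th percentile in bone marrow and 52.8 times in fetal liver. Of 7 erythroid markers 6 were measured, all negative, and their summed signal came to 4.69 in bone marrow and 13.02 in fetal liver on that scale. Megakaryocyte markers summed to 34.1 in bone marrow and 37.5 in fetal liver, with 4 of 7 past 2-fold on the bone marrow side, against 8.13% of all genes, and 1 on the other, against 6.73%. Macrophage markers summed to 28.0 in bone marrow and 34.5 in fetal liver, and the lymphoid markers to 308 in bone marrow and 7.19 in fetal liver. Most of the macrophage sums came from Csf1r in both samples, and most of the lymphoid sum from Dntt in bone marrow but from Cd3e in fetal liver. In fetal liver, most of the megakaryocyte sum came from Gp9 (-1.40) and most of the neutrophil sum from S100a8 (-0.15). Of the hepatocyte markers, Alb, Apoa1 and Ttr were dim on both arrays, and the 4 measured summed to 78.4 in bone marrow and 32.6 in fetal liver, most of it from Trf in both. The part of these cells in the histone values was not tested. Tissue, age and array differ together between the groups and cannot be told apart.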

How the data were processed

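Total RNA of sorted LSK cells (20 ng, with spike-in controls) was amplified and labelled with Cy3, per the labels' protocols. The deposited intensity values come from Agilent's Feature Extraction software, version 10.7.1.1, per the file headers, which subtracted the background within each array and did not scale between arrays. The deposited series value table holds a ratio per probe, made by the authors. Within 0.1% it was the processed signal divided by 178.6 for bone marrow and 133.9 for fetal liver, for 99.99% of 55249 probes printed as 1 spot. Its column medians were 0.0589 and 0.0604, it is neither logged nor centred, and the sources used here do not say how its constants were chosen.

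Control spots and spots marked as population outliers (126 and 116) were left out, and spots of a probe were averaged. Levels are log2 signals minus the 75th percentile of the array (signals of 179.2 and 134.1). Of 55681 probes, 27235 were named through their accession and the RefSeq gene table (GRCm38.p6, used for names and chromosomes only, the design being on mm9), for 20660 genes. That table uses current symbols, so the rule on older symbols was applied to its synonyms too, through which 74 of the 93 members came. A gene took its brightest probe. Genes well above background on 1 array only got a bound from the lowest such signal, 12.4 or 9.82. Single spots of repeated probes gave an SD per difference of 0.06 for bright and 0.20 for dim probes. No spot was saturated.

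With 1 array per group no test was possible, and genes were counted by a 2-fold difference. Named members were all variants, replication-dependent genes past or next to 2-fold, those with the highest signals, and genes with discordant probes. The others were named after their values were seen, as were the motifs and printed windows chosen. Some genes of the lists are counted but not reported here by name. Members and lists were chosen with earlier results of these data known. Normexp used the median spot signal (limma 3.58.1, offset 50), because the scans used here came without a mean signal column. Scripts ran in Python 3.11.15 and were tested on simulated data.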

Additional observations from a re-analysis of the deposited data

How the results depend on the processing

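No paired analysis was possible because each group had 1 array, and no replicate could be left out. Spike-in scaling gave 1 replication-dependent gene 2-fold or more higher in bone marrow and 2 lower, in place of 0 and 5, with a median of -0.28. For variants it gave 2 of 12 higher, against 13.1% of all genes, and turned the median to 0.14. It turned the medians of histone handling and S phase genes to 0.081 and 0.079 and moved that of mitosis genes to -0.36, with 0 and not 5 of these at least 2-fold lower in bone marrow, since it raises every difference by 0.34. Over all genes it gave 1755 higher and 507 lower in bone marrow, in place of 1088 and 901, so that 22.4% and not 45.3% of 2-fold differences were lower in bone marrow. Normexp gave 2 replication-dependent genes at least 2-fold lower in bone marrow, and 607 higher and 384 lower over all genes. The mean over probes and the dimmest probe above background each gave 2 variants higher, through Macroh2a1 (1.45 and 2.45). Over all 13390 measured genes these settings gave 1086 and 1142 higher. A limit of 1.5-fold gave 24 replication-dependent genes lower, against 17.6% of all genes, and 1 higher, against 14.8%, and 2 variants each way. With no filter, 1645 genes were higher and 1683 lower. Leaving out genes with signals over 100000, an alternative chosen after seeing the data, gave a median of -0.67. The median of replication-dependent genes was negative, and between -0.54 and -0.37 relative to that of all genes, in each of the 9 alternatives computed over all genes. In these, no histone gene past 2-fold changed sign, and genes of the other lists were followed as counts and medians only. Arrays limit precision by their number, and dim probes, such as those of H1f6, H1f0, H2bc6 and H4c8, by their signal over background.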
